A study of Mus musculus with 55 samples.

Results

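T-box genes encode transcription factors that share a DNA-binding T domain, and 10 of them (Tbx1, Tbx2, Tbx3, Tbx4, Tbx5, Tbx15, Tbx18, Tbx20, Eomes and Tbr1) were followed through a bulk RNA-seq series of mouse pancreatic islets. They were taken by name from a table of 47937 counted genes, and the list was made with earlier results of these data known. The mice carried the strain label C57B6/J and were male. βEedKO animals (genotype Eed -/-) lacked Eed in β cells, where a RIP-Cre transgene, Cre recombinase under an insulin promoter, deleted the floxed alleles. The 16 libraries held islets of wild-type mice (3 at 8 weeks of age and 3 at 25 weeks), heterozygous mice (3 at 8 weeks and 2 at 25 weeks) and βEedKO mice (3 at 8 weeks and 2 at 25 weeks). Per the study's methods, islets were hand picked and kept in culture medium, and for RNA purified islets were lysed directly. Whether the islets of these libraries had been cultured is not stated. Each 25-week βEedKO library pooled islets of several animals. The deletion was directed to β cells, while the libraries held whole islets with all their other cells. A chromatin-state map of wild-type islets gave the state at each start site.

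T-box factors bind short half-sites in DNA and act as activators or repressors in the embryo, where their restricted expression helps pattern the heart, limbs, pharynx, body wall and brain. Eed is a core subunit of Polycomb repressive complex 2 (PRC2), which writes H3K27me3, a histone mark found over silent developmental regulators. Many such regulators sit in bivalent chromatin, where H3K27me3 lies together with H3K4me3, the mark of start sites.

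Library totals ranged from 4645393 to 22925359 counts, with the lowest in replicate 2 of wild type at 25 weeks. Levels are given as CPM (counts scaled to a common library size) scaled by TMM factors, which correct for differences in RNA composition. The factor was 0.760 in βEedKO 25-week replicate 2 and above 1 in replicate 3. Eed lay between 13.4 and 15.6 CPM in the βEedKO libraries and between 19.3 and 33.1 CPM in wild type, with a log2 fold change of -1.04 at 8 weeks (adjusted p = 0.0881, edgeR) and -0.69 at 25 weeks (adjusted p = 0.142). Neither was called, and heterozygous libraries lay between 16.3 and 20.5 CPM, below every wild-type library of their age. Summed islet hormone and granule genes (7 genes) lay below the wild-type range in βEedKO at 25 weeks, at 42655 and 48227 CPM against 141430 to 241679 CPM, with Ins1 (log2 fold change -3.85, adjusted p = 0.0141) and Iapp (-3.17, adjusted p = 0.0227) called lower. The sum followed Ins1, Ins2 and Iapp, and the α-cell hormone Gcg and the granule protein Chga had both βEedKO libraries above wild type, uncalled. In bulk islets, fewer cells of a type and less RNA per cell cannot be told apart. Acinar genes (4 genes, digestive enzymes) summed to 177166 CPM in βEedKO 25-week replicate 2 and to 4710 CPM in replicate 3, so the 2 libraries differed in exocrine RNA.

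The 10 genes lie on 6 chromosomes of GRCm38. Tbx2 (chr11:85832551-85841948) and Tbx4 (chr11:85886422-85916097) have start sites 53.9 kb apart, with 1 protein-coding gene between them. Tbx3 (chr5:119670669-119684724) and Tbx5 (chr5:119832668-119885219) form the other close pair, with start sites 162 kb apart and no protein-coding gene between them. Tbx20 (chr9:24718138-24774303), Tbx18 (chr9:87702800-87731260) and Eomes (chr9:118478212-118486132) share chromosome 9 at a distance of many megabases. Tbx1 (chr16:18580979-18590671), Tbx15 (chr3:99240381-99354259) and Tbr1 (chr2:61802930-61814114) stand alone. Tbx1, Tbx18 and Tbx20 are transcribed from the minus strand and the other 7 from the plus strand.

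To describe the chromatin from which these genes start, each gene's start site was read from the segmentation of wild-type islets, which assigns every 200-bp bin of the autosomes to one of 24 states. State M, bivalent chromatin rich in H3K27me3, held the start site of 8 of the 10 genes. Tbx1 and Tbx3 started in state L, the bivalent state rich in H3K4me3, and state M covered most of both gene bodies (82.0% of Tbx1 and 94.4% of Tbx3). State M held the start of at least 1 annotated transcript in all 10 genes. Of 28877 genes with a state, 5.62% started in state M and 10.5% in state L.

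The unbroken run of bivalent and Polycomb states (K to O) around the start site spanned 19.6 kb at Tbx18, 28.6 kb at Tbx20, 35.2 kb at Tbx1, 37.4 kb at Tbr1, 39.4 kb at Tbx2, 45.0 kb at Tbx15, 47.4 kb at Tbx3, 52.2 kb at Eomes, 64.2 kb at Tbx4 and 67.6 kb at Tbx5. The median of the 10 runs was 42.2 kb, against 18.2 kb (quartiles 11.0 and 31.9 kb) over the 1624 genes that start in state M. Between the start sites of Tbx3 and Tbx5, 96.1% of the bins were in states K to O, and between those of Tbx2 and Tbx4 the share was 97.4%. At Tbr1 the domain ended shortly upstream of the start site, and 64.7% of the bins within 5 kb of that site were in states K to O, while the other 9 genes had 88.2% or more.

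**Figure D1:**
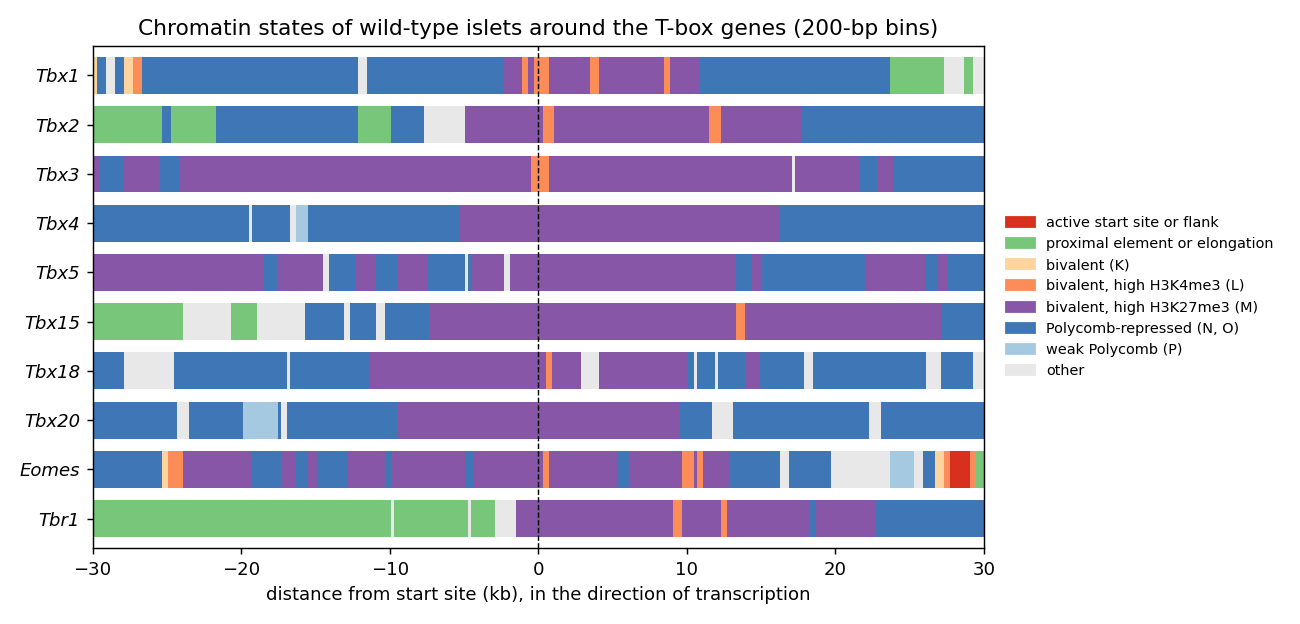
Chromatin states of wild-type islets within 30 kb of each start site (x axis, distance in kb in the direction of transcription), 1 row per gene, coloured by state. State M (violet) lies on or beside every start site, state L (orange) sits at the start of Tbx1 and Tbx3, and upstream of Tbr1 the bivalent domain gives way to proximal-element or elongation states (green).

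The promoter windows of 4 of these genes are shown (RefSeq, GRCm38.p6, 250 bases before to 50 after the start, 5′ to 3′ on the gene's strand). The 4 genes had 0 or 1 read in wild type at 25 weeks and reads in both βEedKO libraries, and were chosen after those values were seen. Tbx4 had such values too, and its window (8 CpGs), 10343 bp from its start site, is not shown. CpG dinucleotides, which are frequent in CpG-island promoters, are in capitals. Windows are chr9:87731211-87731510 (minus strand) for Tbx18, chr9:24774254-24774553 (minus) for Tbx20, chr9:118477939-118478238 (plus) for Eomes and chr2:61804203-61804502 (plus) for Tbr1, the last lying 1523 bp from the start site used for the chromatin states.
Tbx18: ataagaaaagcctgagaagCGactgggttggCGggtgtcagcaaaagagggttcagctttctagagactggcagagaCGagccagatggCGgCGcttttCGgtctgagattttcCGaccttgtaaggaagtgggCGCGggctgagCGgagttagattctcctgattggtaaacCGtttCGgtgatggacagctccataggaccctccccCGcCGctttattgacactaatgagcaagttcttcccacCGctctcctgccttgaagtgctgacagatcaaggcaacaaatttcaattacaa
Tbx20: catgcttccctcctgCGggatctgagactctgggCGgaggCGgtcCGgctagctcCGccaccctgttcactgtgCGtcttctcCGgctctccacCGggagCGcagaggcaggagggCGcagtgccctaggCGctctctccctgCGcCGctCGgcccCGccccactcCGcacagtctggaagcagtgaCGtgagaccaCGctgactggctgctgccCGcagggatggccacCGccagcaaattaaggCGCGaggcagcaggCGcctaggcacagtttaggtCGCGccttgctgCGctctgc
Eomes: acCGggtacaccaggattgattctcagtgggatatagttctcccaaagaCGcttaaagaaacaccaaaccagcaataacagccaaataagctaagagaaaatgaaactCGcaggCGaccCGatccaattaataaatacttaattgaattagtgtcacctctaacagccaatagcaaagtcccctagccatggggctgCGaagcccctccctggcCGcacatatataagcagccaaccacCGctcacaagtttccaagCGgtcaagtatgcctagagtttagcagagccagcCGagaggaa
Tbr1: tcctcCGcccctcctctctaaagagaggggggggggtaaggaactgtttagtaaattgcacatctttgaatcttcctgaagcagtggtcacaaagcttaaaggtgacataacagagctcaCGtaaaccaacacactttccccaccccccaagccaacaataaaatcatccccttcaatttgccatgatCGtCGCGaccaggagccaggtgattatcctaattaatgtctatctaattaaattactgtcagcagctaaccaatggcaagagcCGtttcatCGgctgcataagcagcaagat
Tbx20 had 26 CpGs in its window, Tbx18 had 15, Eomes had 10 and Tbr1 had 7, against a median of 7 (quartiles 3 and 20) over 32851 promoter windows. The table held windows for Tbx1 and Tbx4 too, and none for Tbx2, Tbx3, Tbx5 and Tbx15. The T-box half-site AGGTGTGA, searched on both strands (reverse complement TCACACCT), was in none of the 7 windows of these 6 genes and in 1.28% of all windows. Its 6-base core GGTGTG, which overlaps it, was also in none of them and in 19.0% of all windows.

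At 25 weeks, T-box genes that were at or near 0 in wild-type islets were present in βEedKO islets. In the edgeR fit, 6 of the 10 genes were called higher (Tbx3, Tbx5, Tbx15, Tbx18, Tbx20 and Tbr1), and in that comparison 4.58% of the 18685 genes tested were called higher. Tbx1 and Tbx2 were tested and not called, and Tbx4 and Eomes had too few reads for the test. Both βEedKO libraries lay above every wild-type library for all 10 genes, which held for 22.6% of genes with a read. Tbx5, Tbx18 and Tbx20 passed the filter on low counts only through the 25-week βEedKO libraries, and without those libraries 5 of the 10 genes would have passed.

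**Figure D2:**
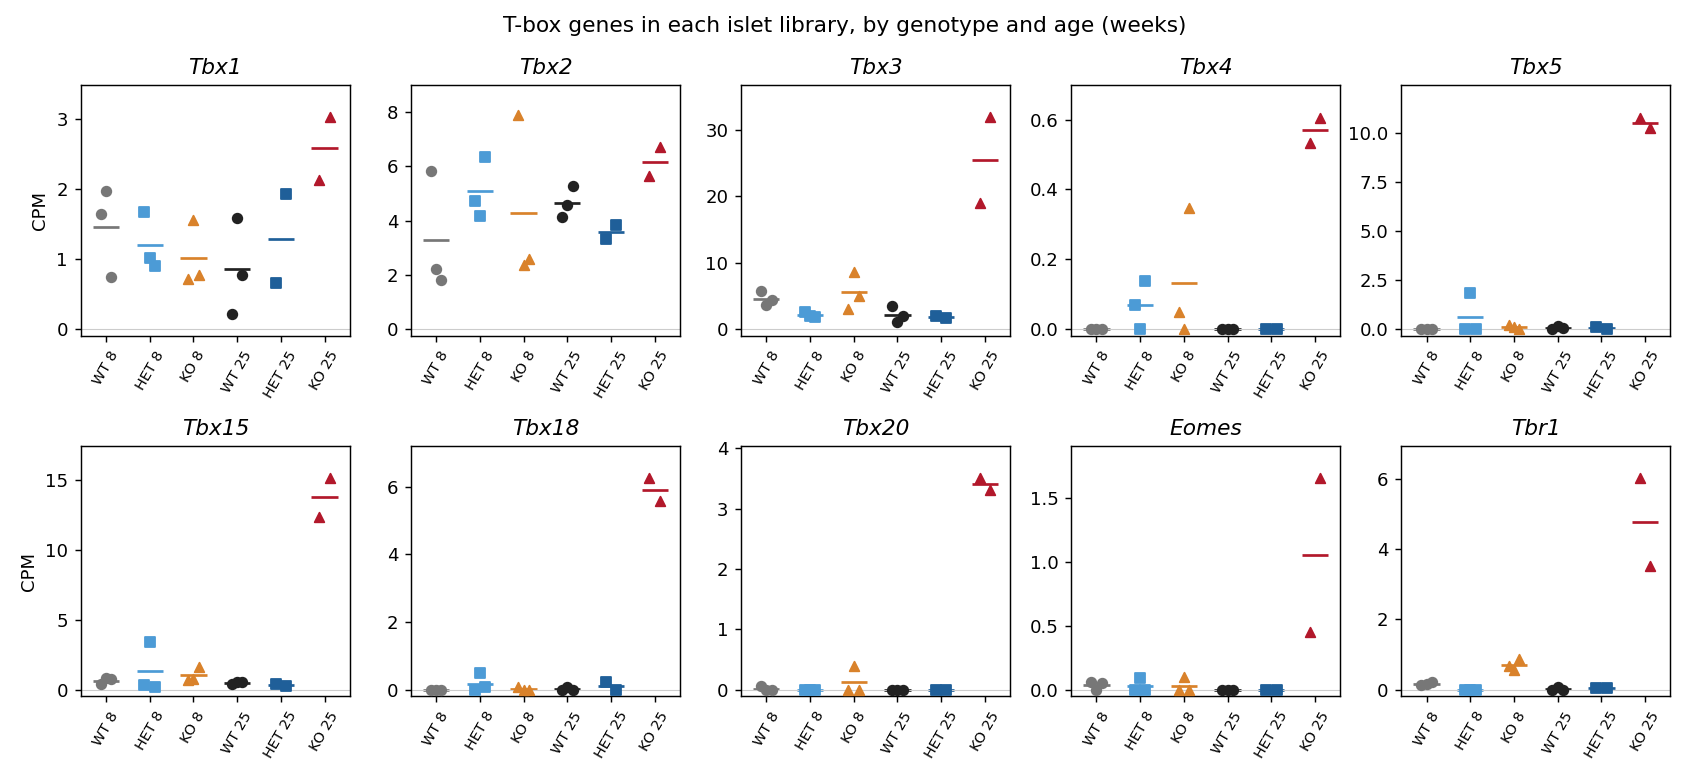
CPM of each T-box gene (y axis, linear, a scale per panel) in every library, grouped by genotype (WT, HET for heterozygous, KO for βEedKO) and age in weeks; points are libraries and bars are group means. The 2 βEedKO libraries at 25 weeks lie above all 3 wild-type libraries of that age in all 10 panels, and in Tbr1 the 3 βEedKO libraries at 8 weeks also lie above wild type.

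Tbx5, needed for forelimb and heart development and mutated in Holt-Oram syndrome, had 142 and 254 reads in βEedKO at 25 weeks (10.8 and 10.3 CPM). Wild type had 0, 2 and 1 reads, at most 0.150 CPM. The 2 groups were far apart and the βEedKO pair nearly equal. Scaled to library size with the TMM factors, the ratio was 107 (95% counting interval 36.4 to 522), and the adjusted p was 0.0042. Tbx4, its relative in hindlimb and lung mesenchyme, was much lower, with 7 and 15 reads in βEedKO (0.533 and 0.606 CPM) and none in wild type. With wild type set to 3 reads for the whole group, the level was at least 5.96-fold higher. Tbx4 did not pass the filter of the main fit, and with no filter on low counts it was tested and not called.

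Tbx3, a repressor active in the cardiac conduction system and mammary gland, was expressed in wild-type islets and rose in βEedKO. It had 18.9 and 31.9 CPM in βEedKO at 25 weeks and 3.49, 1.05 and 1.93 CPM in wild type. The groups were separate, with the lowest βEedKO library several times the highest wild-type one. The log2 fold change was 3.57 (SE 0.55, adjusted p = 0.00417). With the replicate number as a block it was nearly the same (3.63) and the call was lost (adjusted p = 0.0621), in a fit that leaves few libraries to estimate the spread. Tbx2, the closest paralog of Tbx3 and a repressor with overlapping roles, had 5.63 and 6.70 CPM in βEedKO and 4.14, 4.59 and 5.26 CPM in wild type. The log2 fold change of Tbx2 was 0.34 (SE 0.60, adjusted p = 0.815), so its small gap was within the error. The 2 paralogs, both in bivalent chromatin and both expressed in control islets, thus gave different test results, and the difference between the genes was not tested.

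Tbx15, a regulator of skeletal, muscle and skin patterning, had 12.4 and 15.1 CPM in βEedKO at 25 weeks. The wild-type libraries had 0.436, 0.527 and 0.542 CPM, a narrow band far below. Its log2 fold change was 4.68 (SE 0.54), with the smallest adjusted p of the 10 genes (0.0011). Tbx18, its close relative, which acts in the sinoatrial node, epicardium and ureter mesenchyme, had 82 and 138 reads (6.24 and 5.57 CPM) against 0, 1 and 0 reads. The ratio was 179 with a wide counting interval of 31.7 to 7090, since it rests on 1 wild-type read, and the adjusted p was 0.00907. Tbx18 was no longer called without wild-type 25-week replicate 3 (adjusted p = 0.0528), which held that read, nor without βEedKO 25-week replicate 2 (0.053) or 3 (0.0574).

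Tbx20, required for the growth of the heart chambers, had 46 and 82 reads in βEedKO at 25 weeks (3.50 and 3.31 CPM) and none in wild type. That was at least 34.7-fold higher against the floor of 3 reads over the group. Its adjusted p of 0.0418 was close to the threshold of 0.05. The call was lost with the replicate block (adjusted p = 0.129), when any of the 6 wild-type libraries was left out (0.0574 to 0.137) and when either 25-week βEedKO library was left out (0.145 and 0.155). Tbx1, the pharyngeal and outflow tract regulator of the DiGeorge region, had 2.13 and 3.03 CPM in βEedKO and 0.218, 1.58 and 0.774 CPM in wild type. Although the libraries did not overlap, the log2 fold change of 1.44 (SE 0.71) was not called (adjusted p = 0.295).

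Tbr1, a transcription factor of deep-layer neurons of the cerebral cortex, had 79 and 87 reads (6.01 and 3.51 CPM) in βEedKO at 25 weeks. Wild type had 0, 1 and 0 reads. The ratio was 135 (counting interval 23.9 to 5360) with an adjusted p of 0.00165. Eomes, the Tbr1 relative that acts in the early embryo, in cortical progenitors and in cytotoxic lymphocytes, had 6 and 41 reads (0.457 and 1.66 CPM) and none in wild type, at least 12.7-fold higher. The 2 βEedKO libraries of Eomes were far apart, both above wild type. With no filter on low counts, Eomes was tested and called and the count became 7.

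At 25 weeks, Tbx3, Tbx5, Tbx15 and Tbr1 were called whichever of the 11 wild-type and βEedKO libraries was left out. With the replicate block the called genes were Tbx5, Tbx15, Tbx18 and Tbr1. The median log2 fold change of all tested genes was 0.03, and 6.02% of them exceeded 3, as did the 6 called T-box genes.

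To determine whether the genes already differed at 8 weeks, the same fit was read at that age. At 8 weeks, 0 of the 8 genes tested were called, where 0.428% of tested genes were called higher. Tbr1 and Tbx5 were below 0.05 before adjustment, and DESeq2 also called none. Tbr1 had 14, 11 and 10 reads in βEedKO (0.664, 0.552 and 0.865 CPM) and 2, 3 and 4 reads in wild type (0.127, 0.174 and 0.212 CPM). All 3 βEedKO libraries were above all 3 wild-type libraries. No other member showed this, and it held for 5.17% of genes with a read. The log2 fold change of Tbr1 was 1.95 (SE 0.62, adjusted p = 0.361).

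The remaining genes overlapped at 8 weeks. Tbx5 had 4, 2 and 0 reads in βEedKO and none in wild type, at least 1.97-fold higher. Tbx20 had 8 reads in βEedKO replicate 4 and none in replicates 1 and 5, against 1 read in wild type. Tbx18 had 2 reads in βEedKO and none in wild type, both within the floor of 3 reads. Tbx4 had 1, 0 and 4 reads against none. Tbx3 spanned 3.08 to 8.53 CPM in βEedKO and 3.66 to 5.71 CPM in wild type (log2 fold change 0.29, SE 0.46). Tbx15 had 0.712, 0.752 and 1.64 CPM against 0.381, 0.814 and 0.741 CPM (0.64, SE 0.46). For the genes with few reads, a small early rise was not detectable at this depth.

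The knockout effect at 25 weeks was then set against that at 8 weeks in the same model. None of the 8 differences tested was called, where 0.091% of tested genes were called higher at 25 weeks. Without adjustment Tbx3, Tbx15 and Tbr1 were below 0.05. The difference in log2 fold change was 4.03 for Tbx15 (SE 0.70, adjusted p = 0.0624), 3.28 for Tbx3 (SE 0.71, adjusted p = 0.128) and 4.91 for Tbr1 (SE 1.09, adjusted p = 0.136). These calls depended on the fit, with Tbx3 and Tbx15 called by DESeq2 (adjusted p = 0.00195 and 0.000189) or with no filter, Tbx3 with all 16 libraries in the fit (0.0395) and Tbx15 without wild-type 8-week replicate 1 (0.04). Over all genes, DESeq2 called 167 differences higher where edgeR called 17. Tbx5, Tbx18 and Tbx20 had no reads in a wild-type group, and their fitted differences are not given.

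Comparing βEedKO islets directly between the ages, 3 genes were called higher at 25 than at 8 weeks (Tbx5, Tbx15 and Tbx18), where 1.02% of tested genes were. Of these, Tbx5 and Tbx18 passed the filter on low counts only through the 25-week βEedKO libraries, so the count is a description beside that share. Every library at 25 weeks was above every library at 8 weeks for 9 of the 10 genes, Tbx2 being the exception. The share of all genes with this separation was not computed, so the count is a description only. Tbx15 had a log2 fold change of 3.69 (SE 0.50, adjusted p = 0.00757) and Tbx5 of 6.47 (adjusted p = 0.0113). Tbx18, with 2 reads in all at 8 weeks, had an adjusted p of 0.0196. Tbr1 (2.73, adjusted p = 0.0614) and Tbx3 (2.14, adjusted p = 0.0756) missed the threshold. With the replicate block, or without either 25-week βEedKO library, none was called, and without βEedKO 8-week replicate 4 the only call was Tbx15. Over all genes the block changed the calls from 190 higher and 91 lower to 147 and 635. Leaving out βEedKO 8-week replicate 4 changed them to 41 and 35. Leaving out a 25-week βEedKO library leaves a lone library in that group, so a call lost there is not a result about these genes. Age differences are also differences between groups of libraries prepared from different animals.

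At 25 weeks the 2 heterozygous libraries had no reads of Tbx4, Tbx20 or Eomes and 1 read each of Tbr1. Tbx5 had 2 and 0 reads and Tbx18 had 4 and 0. No member was called against wild type at 25 weeks (0 of 8 tested, with 0 below an unadjusted p of 0.05), nor at 8 weeks (0 of 8, with 4 below it), where edgeR called 0 of 18828 genes (0%) at either age, with 2743 genes at 8 weeks and 210 at 25 weeks below an unadjusted p of 0.05, and DESeq2 called no member at either age. Over all genes at 8 weeks, DESeq2 called 122 higher and 291 lower. Against heterozygous islets, βEedKO at 25 weeks had the same 6 genes called higher as against wild type, where 5.41% of tested genes were. These 2 comparisons share the βEedKO libraries, through which alone Tbx5, Tbx18 and Tbx20 passed the filter of the fit with wild type. Tbx3 had a log2 fold change of 3.84 (SE 0.57, adjusted p = 0.00156) and Tbr1 of 6.22 (SE 0.85, adjusted p = 0.00154). Tbx15 was the only call left with the replicate block (adjusted p = 0.0423). Without either heterozygous library the calls were Tbx3 and Tbr1, and without either 25-week βEedKO library they were Tbx3, Tbx15 and Tbr1.

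At 8 weeks, 1 heterozygous library stood apart from its group. Replicate 2 had 41 reads of Tbx5 (1.82 CPM), 77 of Tbx15 (3.42 CPM) and 11 of Tbx18 (0.488 CPM), while replicates 1 and 3 had 0 and 0, 5 and 3, and 0 and 1 reads of these genes. It had no read of Tbx20 or Tbr1 and 2 of Eomes. Its Tbx3 level (2.04 CPM) lay between those of replicates 1 and 3. Without it, heterozygous Tbx5 was at 0 reads in the group, and the log2 fold change of Tbx15 against wild type went from 1.06 to -1.20, uncalled in both. Tbx3 was lower in all 3 heterozygous libraries (1.79 to 2.51 CPM) than in all 3 of wild type, and Tbr1 had no read in them, but neither was called (adjusted p = 0.289 and 0.212). Such a complete separation below wild type was found for 2 of the 10 genes and for 7% of genes with a read. Tbr1 was called lower without wild-type 8-week replicate 1 (adjusted p = 0.0461), a setting in which 516 genes were called lower and 85 higher of 18757 tested.

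Between βEedKO and heterozygous islets at 8 weeks, 1 member was called, Tbr1, higher in βEedKO, where 3.6% of tested genes were. The βEedKO libraries held 35 reads of Tbr1 in all and the heterozygous libraries none. The adjusted p was 0.00608, and with the replicate block it was 0.383. Over all genes the fit with the block called 1 higher, against 678 in the main fit. Tbx3 in the same comparison had every βEedKO library above every heterozygous one, with a log2 fold change of 1.39 (SE 0.43, adjusted p = 0.0782), and it was called by DESeq2 (0.0196) and without βEedKO 8-week replicate 1 (0.0167). Those settings also called more genes in all, 1502 higher and 779 lower by DESeq2 and 2032 and 1982 without that library, against 678 and 214.

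Levels were compared between genes after division by exon length (CPM per kb), which takes in the exons of all annotated transcripts. That length was 11997 bp for Tbx20 and 3401 to 6624 bp for the other members. In wild type at 25 weeks Tbx2 led with a mean of 1.29 CPM per kb and stood apart from the rest. Tbx3 (0.326), Tbx1 (0.244) and Tbx15 (0.134) followed, each overlapping its neighbour in the order, and the other 6 genes were at 0.0162 or below. In βEedKO at 25 weeks the order was different. Tbx3 (3.84 CPM per kb) and Tbx15 (3.68) led and overlapped. Tbx5 (2.25), Tbx2 (1.70) and Tbx18 (1.25) came next and were separate from each other, then Tbr1 (0.868) and Tbx1 (0.733), which overlapped. Tbx20 (0.284), Eomes (0.254) and Tbx4 (0.167) were last. Before division by length, Tbx20 (mean 3.41 CPM) was above Tbx1 (2.58 CPM). Both libraries of Tbx4 were below both of Tbx20, and Eomes overlapped each. Tbx5, with 3 reads in wild type, was above Tbx2, which in wild-type islets led only among the T-box genes followed here. Mga, a T-box gene outside that list, was above Tbx2 in wild type and above Tbx5 in βEedKO.

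**Figure D3:**
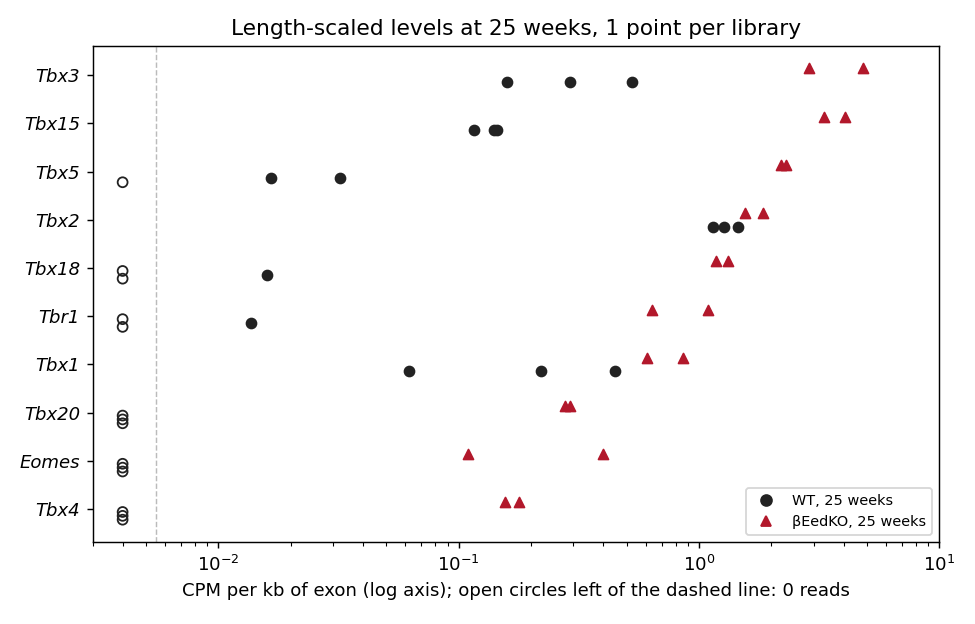
Length-scaled level of each T-box gene at 25 weeks (x axis, CPM per kb of exon on a log scale) in 3 wild-type and 2 βEedKO libraries, ordered by the βEedKO mean; open circles left of the dashed line had 0 reads. Tbx2 differs least between the groups, and Tbx5, Tbx18 and Tbr1 go from 1 read or fewer in most wild-type libraries to above 0.6 CPM per kb.

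Some of these genes mark mesenchymal cells, so markers of cells other than β cells were set beside them. Of 11 mesenchyme genes, 4 were called higher in βEedKO at 25 weeks (Pdgfra, Col1a1, Col1a2 and Dcn, log2 fold changes 1.51 to 2.79), where 4.58% of all tested genes were. The summed level of the 11 was 433 and 558 CPM against 182 to 264 CPM in wild type. At 8 weeks the sum was 209 to 363 CPM in βEedKO and 165 to 229 CPM in wild type, with none of the 11 called. The heterozygous library that stood apart had 407 CPM, and the other 2 of its group 128 and 145 CPM. That library and βEedKO 25-week replicate 3 (433 CPM) had similar mesenchyme sums with a different makeup. Dcn, a matrix proteoglycan, had 83.0 and 84.2 CPM in them. Des, the muscle and pericyte filament desmin, had 55.7 CPM in the former and 8.72 CPM in the latter, while Col1a2 had 34.4 and 53.9 CPM and Pdgfra 4.13 and 6.46 CPM. Tbx5 was 1.82 CPM in the former and 10.3 CPM in the latter, Tbx15 3.42 and 15.1 CPM, Tbx18 0.488 and 5.57 CPM. Tbr1 and Tbx20 were at 0 reads in the former and at 3.51 and 3.31 CPM in the latter. No gene of the mesenchyme list was at 0 in any of these libraries. βEedKO 8-week replicate 1 had 363 CPM with 4 reads of Tbx5 and 2 of Tbx18, and its sum had another makeup. Dcn was at 17.3 CPM or below in every βEedKO library at 8 weeks, while Rgs5, also on the mesenchyme list, had 112 to 127 CPM. Equal sums therefore do not mean equal amounts of the same cells. The part of mesenchymal cells in the rise of Tbx5, Tbx15 and Tbx18 was not tested.

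**Figure D4:**
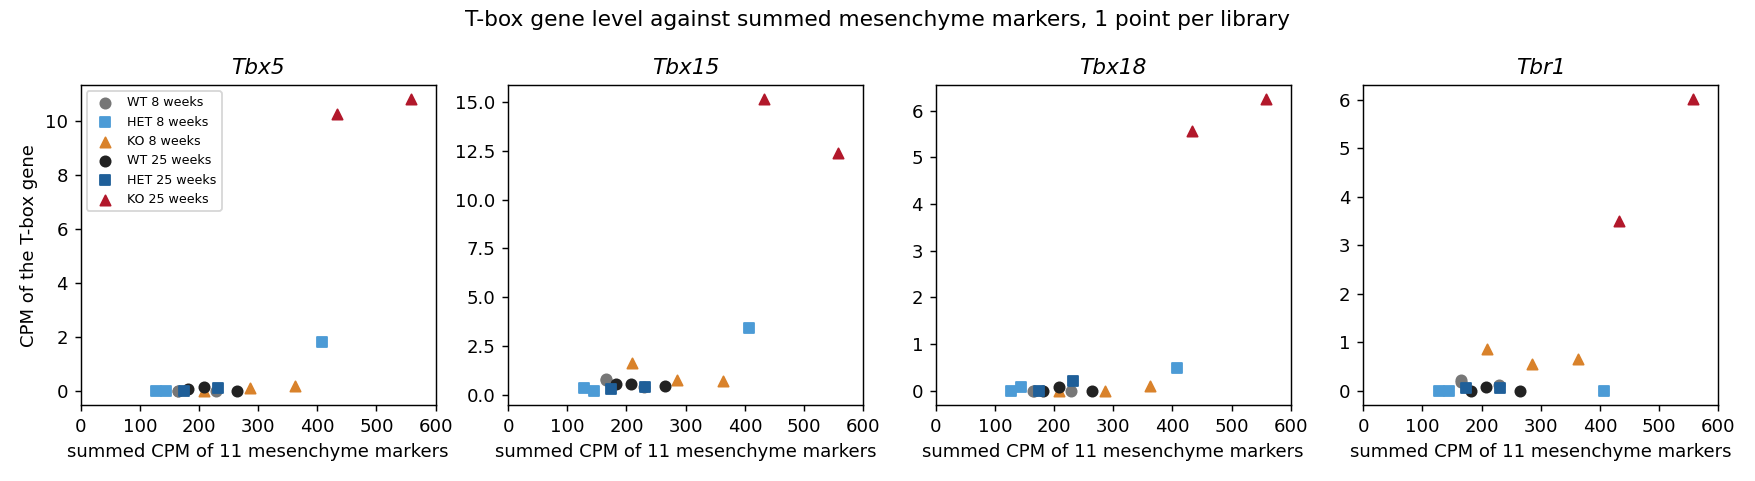
CPM of Tbx5, Tbx15, Tbx18 and Tbr1 (y axes, linear) against the summed CPM of 11 mesenchyme markers (x axis) in each of the 16 libraries, by genotype and age. Heterozygous 8-week replicate 2, at 407 CPM of markers, is raised over its group for Tbx5, Tbx15 and Tbx18 and is at 0 for Tbr1, and the 2 βEedKO libraries at 25 weeks are the highest in all panels.

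The other marker lists were read in the same way. The 4 mesothelium markers went in both directions at 25 weeks. Their sum was 5.09 and 12.5 CPM in βEedKO against 28.9 to 37.1 CPM in wild type and followed Msln, which was called lower. The other 3 had positive log2 fold changes and were not called, among them Wt1 with 3.73 and 3.88 CPM against 0 to 0.872 CPM (adjusted p = 0.174). T and NK cell markers (7 genes) summed to 9.66 and 11.2 CPM in βEedKO at 25 weeks and 0.232 to 2.40 CPM in wild type, none called. The highest sum, 34.6 CPM, was in βEedKO 8-week replicate 4, where Gzma alone had 28.2 CPM and Eomes had 2 reads. Cd8a, a T cell coreceptor, was lower in that library (1.40 CPM) than in βEedKO at 25 weeks (2.28 and 2.26 CPM). The ranges of endothelial markers overlapped between the genotypes at 25 weeks (185 to 232 CPM in βEedKO and 169 to 206 CPM in wild type), as did those of Schwann cell markers (25.0 to 70.6 and 18.8 to 81.5 CPM), duct markers (226 to 247 and 200.2 to 239 CPM) and macrophage markers (72.0 to 314 and 50.1 to 102 CPM). These sums hide opposite movements. Of the 4 endothelial genes, Pecam1, Cdh5 and Esam had both βEedKO libraries above every wild-type library and Kdr had both below, with none called. Of the 4 duct genes, Krt19 and Sox9 were called higher, and Krt7, the most abundant, had both βEedKO libraries below wild type (log2 fold change -0.80, adjusted p = 0.0588). Their part in the T-box values was not tested.

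The start-site state was set against the calls at 25 weeks. Of the 8 members in state M, 6 were tested and 5 called higher, while among all tested genes in that state 236 of 869 were called higher (27.2%). Of those 5, Tbx5, Tbx18 and Tbx20 passed the filter on low counts only through the 25-week βEedKO libraries. The 2 shares are therefore given as a description. State L had 14.2% called higher and state A, the active start-site state, 0.443%. Tbx2 started in state M, with 91.7% of its body in that state, and was expressed in wild type and not called. Of the 2 members in state L, Tbx3 was called and Tbx1 was not. Both states thus held called and uncalled members.

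Because the use of strand in counting is not stated, genes on the opposite strand could share reads with a member. Gm43050, a noncoding gene that starts 748 bp from Tbx5 on the other strand, had 89 reads in βEedKO at 25 weeks and none in wild type (adjusted p = 0.0158). Tbx3os1, which overlaps Tbx3, had 77 and 49 reads in the 2 groups (log2 fold change 0.25, adjusted p = 0.875), so its count did not follow that of Tbx3. The opposite-strand neighbours of Tbx1, Tbx2, Tbx15 and Tbx18 had 10 reads or fewer in either group.

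Of 7 further T-box genes, Tbx6 and Mga had enough reads for the test and neither was called at either age. Tbx6, which acts in paraxial mesoderm, starts in a transcribed state (D) and had a log2 fold change of 0.53 at 25 weeks (SE 0.71). Mga, a broadly expressed partner of Max, starts in active state B and had -0.13 (SE 0.37). T, Tbx10, Tbx19, Tbx21 and Tbx22 had too few reads. T, which starts in state M within a 40.2 kb run of states K to O, had 5 reads in wild type and 0 in βEedKO at 25 weeks. Tbx10, Tbx19 and Tbx22 had 0 reads in wild type and 2 or fewer in βEedKO at that age. Tbx21, which directs T helper and NK cells, had 10 and 23 reads in βEedKO at 25 weeks and none in wild type.

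Cofactors and targets of T-box factors were then read. Of 19 listed genes, 15 were tested, and 3 were called higher and 1 lower in βEedKO at 25 weeks, with a median log2 fold change of 2.02. Of all 18685 genes tested in that comparison, 856 (4.58%) were called higher and 378 lower, and the median was 0.03. Nkx2-5, a homeodomain partner of Tbx5 and Tbx20 in the heart, had 111 and 464 reads (8.45 and 18.7 CPM) against none in any wild-type or heterozygous library (adjusted p = 0.00348), and it passed the filter on low counts only through the 25-week βEedKO libraries. Cdkn2a, the cell-cycle inhibitor locus that Tbx2 and Tbx3 are known to repress, had 19.4 and 25.6 CPM against 0.232 to 0.654 CPM (log2 fold change 5.81, SE 0.45, adjusted p = 0.00017). Isl1, a factor shared by islets and cardiac progenitors, was lower, at 48.5 and 54.1 CPM against 127 to 177 CPM (log2 fold change -1.58, SE 0.40, adjusted p = 0.0423).

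At 8 weeks the called genes of this list were Cdkn2a (log2 fold change 5.14, SE 0.41, adjusted p = 0.000646) and Reln (2.52, SE 0.29, adjusted p = 0.00577), a known target of Tbr1 in cortex. In that comparison 0.428% of all tested genes were called higher. Reln had 29.0, 28.7 and 18.2 CPM in βEedKO against 3.17, 4.42 and 5.56 CPM in wild type at 8 weeks, and 11.0 and 12.5 CPM against 8.28 to 10.2 CPM at 25 weeks (log2 fold change 0.30, SE 0.30). Tbr1 and Reln thus had opposite orders of the 2 ages within βEedKO, with Reln higher at 8 weeks and Tbr1 at 25. Nkx2-5 had 5, 2 and 1 reads in βEedKO at 8 weeks, all above the wild-type 0, and was not called (adjusted p = 0.304).

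Across the 16 libraries, the genes whose log2 CPM correlated most with a member are given as a description, since the 25-week βEedKO pair and shared library composition set much of each value. They were Ferd3l (r = 0.994) and Tfap2c (0.982) for Tbx20, Hoxb8 (0.974) and Lbx1 (0.953) for Tbx18, Hoxc6 (0.971) and Epas1 (0.958) for Tbx5, Cx3cl1 (0.962) and Slc6a3 (0.961) for Tbr1, Wnt9a (0.959) and Hk1 (0.952) for Tbx3, and Sim2 (0.957) and Camk2a (0.948) for Tbx15. For Tbx2 they were Ccdc61 (0.908) and Pick1 (0.907), and for Tbx1 Col25a1 (0.823) and Cntn4 (0.816). Among the members, Tbx5 and Tbx18 correlated at 0.972 and Tbx5 and Tbr1 at 0.706.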

How the data were processed

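Bulk RNA-seq of 16 islet libraries and a chromatin segmentation of wild-type islets were used. Per the labels and the study's methods, the authors aligned reads to GRCm38 with TopHat 2.0.13, and the deposited counts are raw reads per gene from featureCounts (Subread 1.5.0-p1). Use of strand is not given in the sources used here. The deposited segmentation gives state letters per 200-bp bin, learned by the authors from histone marks, Pol2 and DNA methylation with replicates averaged.

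Counts were tested with edgeR 4.0.16 (R 4.3.3) by the quasi-likelihood test after TMM scaling and a filter by group (filterByExpr, minimum 0.578 CPM). Wild type and βEedKO entered 1 fit of 11 libraries, and comparisons with heterozygous islets a fit of 16. Genes were called at a Benjamini-Hochberg adjusted p under 0.05. DESeq2 1.42.0 was an alternative. Ratios of summed reads carry exact 95% counting intervals, which like the floor of 3 reads cover counting error only. Per the study's methods, replicates were biological, each with islets of a few animals (more in βEedKO at 25 weeks). The scripts were tested on simulated data.

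Deviations from group means correlated at 0.460 and 0.166 (8 weeks) and 0.177 and 0.257 (25 weeks) between same-numbered wild-type and βEedKO libraries, so the replicate number was also fitted as a block. The labels do not say what a number shares, and some unlike numbers correlated as well (up to 0.452). The block was set within each age. It leaves few libraries to estimate the spread, and a library without a same-numbered partner adds nothing to the difference between genotypes. A call lost with the block therefore cannot be put down to the numbering. Names matched 47224 of 47937 genes. All 10 members were named, with the other T-box genes, cofactors and marker genes from fixed lists. Members and lists were chosen with earlier results of these data known. The values of 1 gene of the cofactor list are not reported here.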

Additional observations from a re-analysis of the deposited data

How the results depend on the processing

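Of the T-box genes, 4 to 7 were called higher in βEedKO at 25 weeks over 18 alternatives (4 to 6 with a library left out), and none was called at 8 weeks under any of 18. For the difference between ages, 2 genes were called by DESeq2, 2 with no filter and 1 with all 16 libraries, and leaving out a library gave 0 to 1. For βEedKO at 25 against 8 weeks the count was 5 by DESeq2 and 0 with the replicate block, and 0 to 3 with a library left out. Heterozygous against wild type at 8 weeks gave 0 to 1 with a library left out, and at 25 weeks 0 in all 9 alternatives. βEedKO against heterozygous at 8 weeks gave 2 by DESeq2, 0 with the replicate block and 1 to 2 with a library left out. At 25 weeks that comparison gave 1 with the block and 2 to 3 with a library left out. The block took away the calls at 25 weeks of Tbx3 and Tbx20 against wild type, and of Tbx3, Tbx5, Tbx18, Tbx20 and Tbr1 against heterozygous islets (adjusted p 0.0667 to 0.199), and changed no other call than those given here and in the comparisons above. The causes were not tested, and the block leaves few libraries to estimate the spread. Over all genes, the block called 0 of 18685 against wild type at 8 weeks (80 higher and 1 lower without it). At 25 weeks it called 591 higher and 436 lower (856 and 378 without it). Against heterozygous islets it called 1 higher at 8 weeks (678 higher and 214 lower without it). At 25 weeks it called 207 higher and 222 lower there (1018 and 556 without it). State M held the start of 8 members within 500 bp and of 10 at any transcript start.

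Scaling by library size alone moved the median log2 fold change of all genes at 25 weeks from 0.03 to 0.27 and the calls from 856 higher and 378 lower to 805 and 79. Over all members and comparisons, 753 alternative values kept their direction and side of the threshold, 49 lost a call, 14 gained one and 40 that were uncalled changed sign. Genes with a few reads per library limit what could be detected, and 25-week βEedKO rests on 2 libraries. Leaving out one of them leaves a lone library that is assumed to vary like the other groups.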
